A study of Oncorhynchus mykiss with 24 samples.

Results

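The antioxidant and glutathione enzymes of the rainbow trout embryo were followed through 108 expressed sequence tags (ESTs, fragments of salmonid cDNA that each name a spot on the array). They were all the EST spots whose description holds glutathione, peroxiredoxin, superoxide dismutase, thioredoxin or catalase, out of 16067 EST spots on the salmonid 16K cDNA array. RNA of single whole embryos was hybridized to 24 arrays with a Cy3 and a Cy5 channel, so that 48 embryos were measured. Each array compared embryos of the same sex and age but of different genotype. The embryos were backcross progeny of 1 family, kept at 11°C. The father was an XY third-generation backcross male heterozygous (OSU/CW) at a locus that affects how fast embryos develop, a quantitative trait locus (QTL), and the mother came from the OSU clonal line. OSU/CW embryos therefore carried the CW allele, of a fast-developing clonal line, at the QTL, whereas OSU/OSU embryos carried only alleles of the slow-developing OSU line, and the genome outside the QTL was largely OSU in both. The genotype was read from linked markers and not from the causal gene. Females and males of OSU/CW and of OSU/OSU were sampled at 15, 19 and 28 days post-fertilization (dpf), with 4 embryos in each of the 12 combinations. Eyes and yolk vessels are present at 15 dpf, the tail flexes at 19 dpf and hatching starts at 28 dpf.

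Superoxide dismutases convert superoxide to hydrogen peroxide, which catalase, glutathione peroxidases and peroxiredoxins reduce further. Glutathione peroxidases draw their electrons from glutathione and peroxiredoxins from thioredoxin, and glutathione reductase and thioredoxin reductase restore both carriers with NADPH. Glutathione S-transferases couple glutathione to reactive lipid products and foreign compounds, a system that is well known from fish liver.

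A spot was taken as detected in a channel where its signal was above the 90th percentile of the negative control spots. Of the 108 ESTs, 89 were tested, because they were detected in at least 16 of 48 channels, and 19 were too dim. The dim ones included both glutathione reductase ESTs, both glyoxalase-pathway ESTs (lactoylglutathione lyase and hydroxyacylglutathione hydrolase), 1 of 2 catalase ESTs, 2 of 3 glutathione peroxidase 1 ESTs and 1 EST each of Cu-Zn and Mn superoxide dismutase. Only 7 of the 89 were detected in all 48 channels. The detection filter can be met by the embryos of a single time point. The array's ESTs name genes by similarity, and related or duplicated trout genes can bind the same spot, so several ESTs of 1 description need not report the same transcript.

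Signal relative to local background rose with age, which runs alongside every comparison of time points. The raw median signal of a channel did not rise, with 2638.3 to 14634.5 at 15 dpf and 1061.3 to 5491.7 at 28 dpf. The median signal over local background was 1.18 to 1.83 at 15 dpf, 1.20 to 3.07 at 19 dpf and 1.75 to 4.83 at 28 dpf. The number of the 108 ESTs detected in a channel was 24 to 89 at 15 dpf, 20 to 102 at 19 dpf and 43 to 104 at 28 dpf. No array holds embryos of different ages, so signal over background and age cannot be told apart. Levels below are log2 intensities on a common scale of all arrays, and differences are on the same log2 scale, with the standard error (SE) and the adjusted p of a limma model across 11659 tested features.

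ESTs of glutathione S-transferases and of Cu-Zn and Mn superoxide dismutase were among those higher at 28 than at 15 dpf, and ESTs of glutathione peroxidase 3, thioredoxin reductase 1, glutathione synthetase and a thioredoxin domain protein were among those lower. At an FDR of 0.05, 34 of the 89 ESTs (38.2%) differed between 28 and 15 dpf, of which 24 were higher and 10 lower at 28 dpf. The share was near the background, since 37.7% of all tested features differed, 19.2% higher and 18.5% lower. Among the enzymes 27% of the ESTs were higher and 11.2% lower, and the median difference was 0.25, against 0.02 over all features. At an unadjusted p under 0.05 there were 44 ESTs of the 89, and 46.4% of all features. Every one of the 89 ESTs had embryos of 28 dpf within the range of those of 15 dpf, while 2.8% of all features had none. The 24 ESTs higher at 28 dpf were detected in a median of 15 of 16 channels at 28 dpf and in 8 of 16 at 15 dpf, and the 10 lower ones in a median of 13.5 and 14. Whether the signal over background of the arrays has a part in this was not tested.

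The split of calls depended on bringing all arrays to a common scale. With loess within arrays only, the median of all features was -0.55 at 28 minus 15 dpf, and 1 EST was called higher and 29 lower. Relative to that shift the median of the enzymes was still 0.13 higher. Of the 34 ESTs called, 31 kept their sign under this scaling, and 3 (CB516182 of peroxiredoxin-6, CB496449 of peroxiredoxin-5 and CB492698 of microsomal glutathione S-transferase 3) changed it. With plain background subtraction and centring of each channel, the median of all features was 0.21, that of the enzymes 0.42, and 26 ESTs were called higher and 8 lower. All fold changes given here are relative to the median feature.

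**Figure D1:**
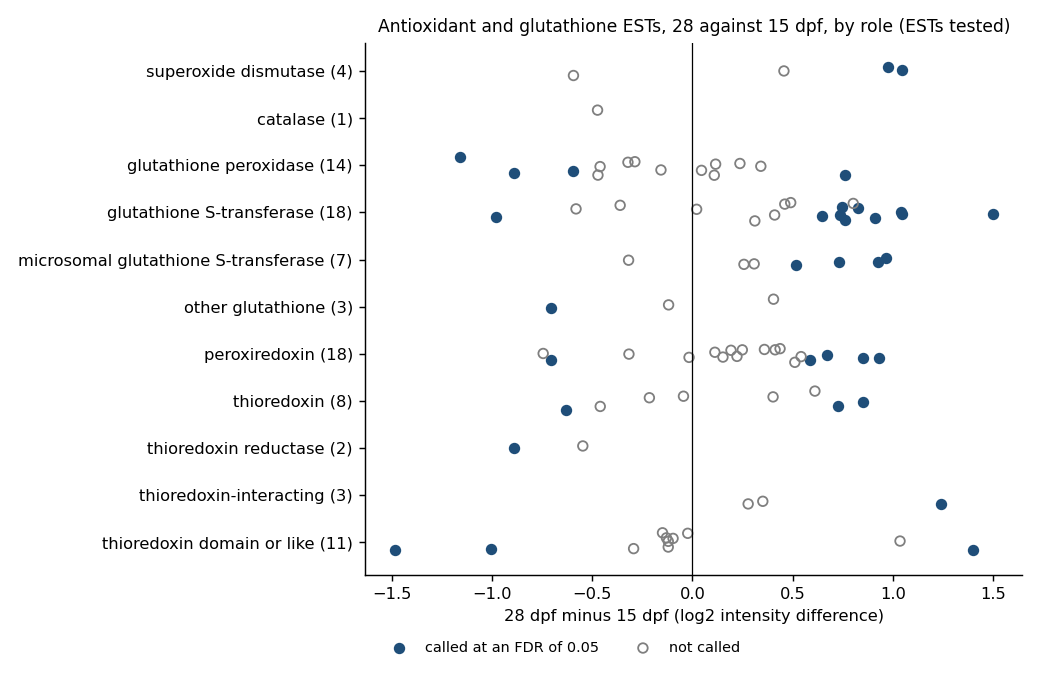
Each point is 1 tested EST, placed on the x axis by its log2 difference between 28 and 15 dpf and on the y axis by its role, with the number of ESTs tested in brackets. Filled points passed an FDR of 0.05. The glutathione S-transferases (cytosolic and mitochondrial) and the microsomal ones lie mostly on the right. Of their ESTs, 9 of 18 and 4 of 7 were called higher. The glutathione peroxidases have 3 of 14 called lower and 1 higher. Over all tested features 19.2% were called higher and 18.5% lower. Neither glyoxalase-pathway EST was tested.

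Superoxide dismutases form the first step of the pathway. The Cu-Zn enzyme of the cytosol was represented by CB494095, with levels of 9.20 to 11.37 around a median of 10.62 at 15 dpf, 10.48 to 11.97 around a median of 11.21 at 19 dpf and 11.11 to 12.54 around a median of 11.59 at 28 dpf, in 16 embryos each. Most embryos of 28 dpf lay above all those of 15 dpf, and the ranges overlapped at their ends. Its level at 28 dpf was 2.07-fold that at 15 dpf, a difference of 1.05 ± 0.20 (SE, adjusted p = 7.24e-05). CB494095 was above the negative controls in 9 of 16 channels at 15 dpf and in 15 of 16 at 28 dpf.

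The mitochondrial Mn superoxide dismutase was higher at 28 dpf as well, on CB497660. It ranged over 9.73 to 11.23 around a median of 10.32 at 15 dpf, 9.62 to 11.87 around a median of 11.10 at 19 dpf and 10.26 to 12.20 around a median of 11.47 at 28 dpf. The difference of 0.98 ± 0.22 (SE, adjusted p = 0.000622) amounts to 1.97-fold. CB497660 was above the negative controls in 8 of 16 channels at 15 dpf and in 15 of 16 at 28 dpf. The other Mn EST, CA055325, was too dim to test and did not rise. Its medians were 10.27, 9.70 and 9.72 at 15, 19 and 28 dpf, with 3, 5 and 6 of 16 channels above the controls. The second Cu-Zn EST, CA054957, was brighter on its own spot and did not pass, with a median of 12.07 at 15 dpf and 12.58 at 28 dpf and a difference of 0.46 ± 0.30 (SE, adjusted p = 0.228), which turned to -0.094 with loess only. The copper chaperone that loads copper into the Cu-Zn enzyme (CB511929) had medians of 11.53 at 15 dpf and 10.68 at 28 dpf and a difference of -0.59 ± 0.29 (SE, adjusted p = 0.0994), which was -0.90 and passed without the female array 35 of 15 dpf (adjusted p = 0.002).

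Catalase, the peroxisomal enzyme that splits hydrogen peroxide, was tested on CA058630. Its level was 10.49 to 11.74 around a median of 10.84 at 15 dpf, 9.92 to 12.32 around a median of 10.99 at 19 dpf and 9.78 to 10.90 around a median of 10.51 at 28 dpf. The embryos of 28 dpf were the least spread, and all 3 ranges overlapped. CA058630 was above the negative controls in 4, 12 and 10 of 16 channels at 15, 19 and 28 dpf. Catalase fell between 19 and 28 dpf by 0.62 on the log2 scale (SE 0.20, adjusted p = 0.027), whereas its difference between 28 and 15 dpf, -0.47 ± 0.20 (SE), did not pass (adjusted p = 0.0545). The difference between 28 and 15 dpf was called in 10 of 34 alternatives, 4 of which left out 1 array (10 or 22 of 19 dpf, 17 of 15 dpf or 23 of 28 dpf), with p down to 0.000328 with loess only. The call at 28 minus 19 dpf was lost when any of 5 arrays was left out (10, 19 or 27 of 19 dpf, 36 or 37 of 28 dpf), with p up to 0.344 over all alternatives.

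Of 14 glutathione peroxidase ESTs, 3 were lower, 1 was higher and 10 did not differ at 28 dpf by the test. Over all tested features 18.5% were lower and 19.2% higher. All 3 that fell describe glutathione peroxidase 3, the secreted plasma form of the selenoenzyme. CA052877 had 11.11 to 12.70 around a median of 11.91 at 15 dpf, 10.09 to 12.79 around a median of 12.02 at 19 dpf and 10.17 to 11.48 around a median of 10.71 at 28 dpf. It was 2.24-fold lower at 28 than at 15 dpf (difference -1.16 ± 0.22, SE, adjusted p = 7.28e-05) and also lower than at 19 dpf (-1.13, adjusted p = 0.000409). CB511601 gave medians of 11.75, 11.76 and 10.81 at 15, 19 and 28 dpf and a difference of -0.89 ± 0.20 (SE, adjusted p = 0.000561), and CB509722 one of -0.59 ± 0.22 (SE, adjusted p = 0.0342). The fourth EST of this description, CB492399, had -0.47 ± 0.23 (SE, adjusted p = 0.104).

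The 6 tested ESTs of phospholipid hydroperoxide glutathione peroxidase, which reduces peroxides within membranes, ran from -0.46 to 0.34 at 28 minus 15 dpf and 0 of them passed. Their brightest spot, CB510303, was detected in all 48 channels and had medians of 14.73, 14.79 and 14.85 at 15, 19 and 28 dpf. The only peroxidase EST called higher was CA768274 of glutathione peroxidase 1, the cytosolic form, with 0.76 ± 0.29 (SE, adjusted p = 0.0353). It was above the negative controls in 5 of 16 channels at 15 dpf and in 14 of 16 at 28 dpf. The other ESTs of this description were too dim to test. Their medians at 15 and 28 dpf were 10.15 and 10.21 (CA062837) and 9.36 and 9.16 (CB491371).

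Glutathione peroxidase 2, known from mammals as the form of the gut lining, was on the array as 3 ESTs that did not run together. Over the embryos their pairwise correlations were -0.32 to 0.36, a description in which each pair shares the same arrays. CB497633 had 7.67 to 10.77 around a median of 9.93 at 15 dpf, 9.10 to 11.72 around a median of 10.85 at 19 dpf and 9.09 to 10.52 around a median of 9.94 at 28 dpf. It was the 1 EST of the 89 (1.12%) that differed between 19 and 15 dpf, where 2.69% of all features did (2.39% higher and 0.3% lower), and it rose by 1.20 ± 0.31 (SE, adjusted p = 0.0201). The call was lost without the male array 11 of 19 dpf or the male array 41 of 15 dpf. It was detected in 1 of 16 channels at 15 dpf and in 10 of 16 at 19 dpf.

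Between 19 and 28 dpf CB497633 fell by 0.96 (adjusted p = 0.034) and CA055453, with medians of 11.53, 11.96 and 11.11 at 15, 19 and 28 dpf, fell by 0.86 (adjusted p = 0.0136). The call of CB497633 was lost without any of 7 arrays (10, 11, 15 or 29 of 19 dpf, 28, 38 or 39 of 28 dpf). CA037513 had medians of 11.31, 10.78 and 11.33 and a difference between 28 and 15 dpf of -0.29 ± 0.32 (SE, adjusted p = 0.503), which was 0.079 with poor spots kept. At 28 minus 19 dpf, 15 of the 89 ESTs (16.9%) differed, 7 higher and 8 lower, against 16.3% of all features, 8% higher and 8.29% lower.

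**Figure D2:**
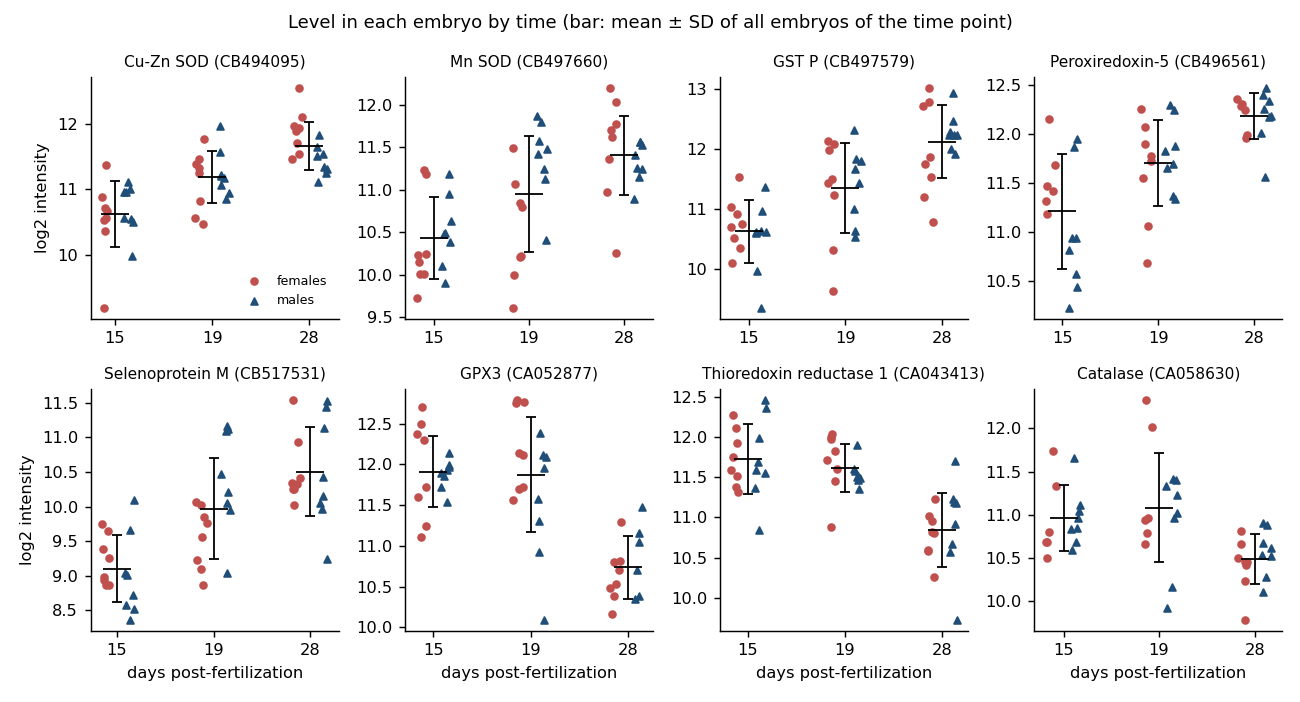
Each panel shows 1 EST, with days post-fertilization on the x axis and log2 intensity on the y axis. Red circles are females, blue triangles are males, and the black bar gives the mean ± SD of all embryos of that age. Cu-Zn and Mn superoxide dismutase, glutathione S-transferase P, peroxiredoxin-5 and selenoprotein M are higher at 28 than at 15 dpf, and glutathione peroxidase 3 and thioredoxin reductase 1 are lower at 28 dpf, and catalase is lower at 28 than at 19 dpf.

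Glutathione S-transferases were the role with most ESTs higher at 28 dpf, with 9 of 18 higher, 1 lower and 8 not called, and a median difference of 0.69. Over all tested features 19.2% were higher and 18.5% lower. With loess only, the median of these transferases was 0.04, and 1 EST was called higher and 3 lower. All 4 ESTs described as glutathione S-transferase P, the class that conjugates electrophiles in many tissues, were called higher, by 0.74 to 1.497. CB497579 gave 9.36 to 11.54 around a median of 10.63 at 15 dpf, 9.64 to 12.32 around a median of 11.47 at 19 dpf and 10.78 to 13.02 around a median of 12.23 at 28 dpf. It was higher at 28 than at 15 dpf (1.497 ± 0.260, SE, adjusted p = 2.16e-05), the largest measured rise of the 89 ESTs in this comparison. It was above the negative controls in 6 of 16 channels at 15 dpf and in 16 of 16 at 28 dpf. The size of this rise thus rests on levels mostly not above the controls at 15 dpf. Of the other class P ESTs, CA057063 was above the controls in 2, CA050452 in 5 and CB496493 in 15 of 16 channels at 15 dpf. A further EST of the class, CA054940 (P 1), had 10.93 to 11.999 around a median of 11.58 at 15 dpf, 11.36 to 12.44 around a median of 11.94 at 19 dpf and 11.98 to 12.77 around a median of 12.41 at 28 dpf, so that its embryos of 15 and 28 dpf met only at the edge (0.83 ± 0.17, SE, adjusted p = 0.000224). Pairwise correlations over the embryos were 0.10 to 0.62 among the 4 class P ESTs, as a description.

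Theta-1, a class of cytosolic transferase acting on small halogenated compounds in mammals, had 2 of 4 tested ESTs higher at 28 dpf and differences of 0.41 to 0.91. The Mu 3 EST (CA057678) had 0.74 ± 0.28 (SE, adjusted p = 0.0329), and 1 of 2 kappa 1 ESTs, of the mitochondrial class, was higher (CB494642, 0.65 ± 0.22, SE, adjusted p = 0.0184). Class A, the main class of mammalian liver, did not run one way. CA052963 had 11.33 to 13.42 around a median of 12.38 at 15 dpf, 10.64 to 12.88 around a median of 11.68 at 19 dpf and 10.35 to 11.96 around a median of 11.32 at 28 dpf, and was 1.97-fold lower at 28 dpf (-0.98 ± 0.20, SE, adjusted p = 0.000179). The other 2 class A ESTs had 0.46 and 0.31, with adjusted p = 0.224 and 0.333 for CB492604 and CB496788. Of the omega-1 ESTs, CB498044 rose between 19 and 28 dpf by 0.90 (adjusted p = 0.00542), with medians of 10.73, 10.29 and 11.14 at 15, 19 and 28 dpf. It was above the negative controls in 6 of 16 channels at 19 dpf and in 14 of 16 at 28 dpf. The other tested omega-1 ESTs had medians of 11.07, 10.43 and 10.58 (CB496797) and 10.10, 10.13 and 10.12 (CA064086). Pairwise correlations of the omega-1 ESTs were -0.23 to -0.05.

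The microsomal glutathione S-transferases are membrane proteins of lipid mediator and detoxification pathways. They had 4 of 7 tested ESTs higher and 0 lower at 28 dpf, against 19.2% and 18.5% of all tested features. The ESTs most often detected at 15 dpf moved little or down. CA061668 (form 3, 16 of 16 channels at 15 dpf) had medians of 13.44 and 13.73 at 15 and 28 dpf, and CA062153 (form 1, 15 of 16) had 12.43 and 11.91. Of the other form 3 ESTs, CA043410 was detected in 2 and CB492698 in 8 of 16 channels at 15 dpf. CB493358 (form 2) gave 9.68 to 11.21 around a median of 10.46 at 15 dpf, 8.90 to 11.55 around a median of 10.51 at 19 dpf and 10.86 to 12.03 around a median of 11.38 at 28 dpf. Nearly all of its rise of 0.96 ± 0.23 (SE, adjusted p = 0.00113) fell between 19 and 28 dpf (0.89, adjusted p = 0.00666). CB493358 was above the negative controls in 7 of 16 channels at 15 dpf and in 15 of 16 at 28 dpf. CB492806 (form 3) was not above the negative controls in any channel at 15 dpf and was detected in 11 of 16 at 28 dpf. Its measured difference was 0.73 (adjusted p = 0.012), and the size rests on levels not above the controls at 15 dpf. Levels at 15 dpf under the lowest detected signal of their channel were also raised to that signal. The mean at 15 dpf then moved only from 9.78 to 9.81, and the ratio was 1.63-fold, which is no firm lower bound. The difference did not pass without the male array 41 of 15 dpf.

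Among the enzymes that make or use glutathione otherwise, glutathione synthetase, which joins glycine in the last step of its synthesis, fell on CA051505. Its level was 10.26 to 11.65 around a median of 10.96 at 15 dpf, 9.74 to 11.14 around a median of 10.75 at 19 dpf and 9.58 to 10.66 around a median of 10.21 at 28 dpf. The difference was -0.70 ± 0.19 (SE, adjusted p = 0.00387), or 1.63-fold lower at 28 dpf. S-formylglutathione hydrolase, which completes the glutathione-dependent removal of formaldehyde, had -0.12 (CA051124) and 0.40 (CB492774), with adjusted p = 0.732 and 0.224, and the value of CB492774 was -0.35 with loess only.

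Peroxiredoxins had 4 of 18 ESTs higher and 1 lower at 28 dpf, where 19.2% of all tested features were higher and 18.5% lower. The mitochondrial peroxiredoxin-5 was represented by 6 ESTs with differences of -0.02 to 0.93, of which 2 passed. CB496561 had 10.23 to 12.15 around a median of 11.25 at 15 dpf, 10.69 to 12.29 around a median of 11.75 at 19 dpf and 11.57 to 12.47 around a median of 12.25 at 28 dpf. The embryos of 28 dpf were also the least spread, with an SD of 0.24 against 0.59 at 15 dpf, and the difference was 0.93 ± 0.21 (SE, adjusted p = 0.000664). The thioredoxin-dependent peroxide reductase of mitochondria, known as peroxiredoxin-3, rose on CB496629, with medians of 10.63, 10.62 and 11.33 at 15, 19 and 28 dpf and a difference of 0.85 ± 0.23 (SE, adjusted p = 0.00285). Peroxiredoxin-6, which uses glutathione, was higher on CB516182 (0.59 ± 0.22, SE, adjusted p = 0.033) and had 0.19 on CA062947 (adjusted p = 0.597). All 4 peroxiredoxin-1 ESTs stayed short of the threshold with -0.74 to 0.41, and CB512125, described as peroxiredoxin without a number, had -0.71 ± 0.23 (SE, adjusted p = 0.015) and was lower at 28 dpf. Among ESTs of the same description, pairwise correlations were -0.19 to 0.50 for peroxiredoxin-5, -0.15 to 0.33 for peroxiredoxin-1 and 0.16 to 0.40 for the peroxide reductase.

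Thioredoxin, the small protein that passes electrons to peroxiredoxins and ribonucleotide reductase, had 6 ESTs that did not form 1 pattern. CB493026 rose, with medians of 10.89, 11.40 and 11.69 at 15, 19 and 28 dpf and a difference of 0.85 ± 0.25 (SE, adjusted p = 0.00643). CK990826 fell, with medians of 11.03, 10.67 and 10.15 and a difference of -0.63 ± 0.22 (SE, adjusted p = 0.024) that was lost without array 14, 26, 33 or 41. Medians at 15 and 28 dpf were 11.09 and 11.82 on CA041451 and 11.32 and 11.94 on CB498297. They were 10.88 and 11.30 on CK990688 and 12.69 and 12.47 on CA057296. Pairwise correlations among the 6 ran from -0.62 to 0.74 over the embryos. The mitochondrial thioredoxin CA054594 fell between 19 and 28 dpf by 0.60 (adjusted p = 0.042), a call lost in 14 of 34 alternatives, 11 of which left out 1 array (10, 11, 15, 19, 27, 29, 33, 36, 37, 38 or 39), with p up to 0.916.

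Thioredoxin reductase 1, the selenoenzyme that recharges thioredoxin, was lower at 28 dpf on CA043413. Its level was 10.84 to 12.45 around a median of 11.64 at 15 dpf, 10.88 to 12.03 around a median of 11.58 at 19 dpf and 9.73 to 11.70 around a median of 10.87 at 28 dpf. It was 1.85-fold lower at 28 than at 15 dpf (-0.89 ± 0.20, SE, adjusted p = 0.000632), and lower than at 19 dpf as well (-0.77, adjusted p = 0.00697). Its other tested EST, CB490458, had -0.55 ± 0.30 (SE, adjusted p = 0.142), and -0.74 without the female array 35 of 15 dpf, where it passed (adjusted p = 0.0415). Thioredoxin-interacting protein, which binds thioredoxin and limits its activity, was higher on CB502618 (1.24 ± 0.27, SE, adjusted p = 0.00052), with medians of 9.47, 9.96 and 10.75. It was above the negative controls in 2 of 16 channels at 15 dpf and in 11 of 16 at 28 dpf, so the size of the difference rests on levels that were mostly not above the controls at 15 dpf. Its brighter EST CA061416 had medians of 12.85, 13.09 and 13.04 and did not pass (0.28 ± 0.15, SE, adjusted p = 0.143), and it was at -0.20 with loess only.

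Proteins with a thioredoxin fold had 1 of 11 ESTs higher and 2 lower at 28 dpf, against 19.2% and 18.5% of all tested features. Selenoprotein M, a thioredoxin-like selenoprotein of the endoplasmic reticulum, rose on CB517531, with 8.36 to 10.10 around a median of 8.99 at 15 dpf, 8.86 to 11.16 around a median of 9.99 at 19 dpf and 9.25 to 11.54 around a median of 10.33 at 28 dpf. It was higher at 28 than at 15 dpf (1.40 ± 0.25, SE, adjusted p = 4.03e-05), but above the negative controls in 3 of 16 channels at 15 dpf and in 12 of 16 at 28 dpf, so this size too rests on levels mostly not above the controls at 15 dpf. Its second EST, CB498613, had 1.04 ± 0.42 (SE, adjusted p = 0.0509). The EST with the smallest p of all 89 was CB488515, similar to thioredoxin domain containing 14, a membrane protein. It had 14.03 to 14.77 around a median of 14.46 at 15 dpf, 13.93 to 14.58 around a median of 14.09 in 10 embryos at 19 dpf and 12.71 to 14.17 around a median of 13.53 at 28 dpf, so that the embryos of 15 and 28 dpf overlapped only between 14.03 and 14.17. It was 2.01-fold lower at 28 dpf (-1.004 ± 0.138, SE, adjusted p = 6.64e-07). Thioredoxin-like 4A (CA050734), a spliceosome protein despite its fold, had the lowest difference of all, -1.48 ± 0.37 (SE, adjusted p = 0.00183). At 15 dpf 1 OSU/CW embryo was at 14.25 and 1 OSU/OSU embryo at 14.60, against a median of 11.80. This EST was named after its value was seen.

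Genes around the pathway were read from lists of file descriptions. Over all tested features 19.2% were higher and 18.5% lower at 28 than at 15 dpf. Of 11 tested ESTs for enzymes that supply NADPH, 3 were higher and 1 lower at 28 dpf. The 3 higher ones were among 6 ESTs of mitochondrial isocitrate dehydrogenase (CB517174 0.96, CB498433 1.13 and CA062987 0.64, with adjusted p = 0.000278, 0.000465 and 0.0127), and the lower one was glucose-6-phosphate dehydrogenase, which opens the pentose phosphate pathway (CB517306, -0.71 ± 0.24, SE, adjusted p = 0.0177). Among 6 ESTs for making or salvaging glutathione, cystathionine gamma-lyase, which releases cysteine, rose (CA052238, 1.45 ± 0.26, SE, adjusted p = 3.07e-05), and cystathionine beta-synthase, the step before it, fell (CA058605, -1.002 ± 0.246, SE, adjusted p = 0.00143). Gamma-glutamyltransferase-like protein 6 also fell (CA056020, -1.88 ± 0.27, SE, adjusted p = 9.45e-07). The rest of this list did not pass. The catalytic subunit of glutamate-cysteine ligase (CA050524) had -0.13 (adjusted p = 0.687). Gamma-glutamyltranspeptidase 1 had 0.39 on CA049948 and 0.23 on CA051028 (adjusted p = 0.31 and 0.528). Of 25 glutaredoxin and selenoprotein ESTs, 7 were higher and 2 lower, and 4 of the 7 described selenoprotein P, the selenium carrier of plasma. The highest of these was CB509685 at 1.53 ± 0.19 (SE, adjusted p = 5.64e-08). The remaining selenoprotein P ESTs (CB498862, CB505935, CA769454, CA049981 and CA044104) had -0.40 to -0.003 and did not pass. They included the brightest EST of this protein, CA049981, with medians of 13.74, 13.93 and 13.73 at 15, 19 and 28 dpf.

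These are whole embryos, in which fewer cells of a type and less RNA per cell cannot be told apart. Over the same interval 51 of 58 skeletal muscle marker ESTs were higher at 28 dpf and 0 lower, and 41 of 42 lens ESTs were higher. Of the liver ESTs 11 of 43 were higher and 4 lower, and of the erythrocyte ESTs 5 of 53 were higher and 18 lower. Of all tested features 19.2% were higher and 18.5% lower. The log2 of the mean intensity over the erythrocyte list was 12.77 to 13.72 at 15 dpf, 13.08 to 13.77 at 19 dpf and 12.30 to 13.19 at 28 dpf, and that of the liver list 12.80 to 13.32, 12.84 to 13.35 and 12.71 to 13.27. The part of these cell types in the enzymes' differences was not tested.

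The comparison of the sexes asked which transcripts differ before the gonads can be told apart by shape. At an FDR of 0.05, 0 of the 89 ESTs differed between females and males at 15, 19 or 28 dpf or over all embryos, where 0.00858%, 0%, 0.00858% and 0% of all features did. At an unadjusted p under 0.05 there were 5, 10, 2 and 1 ESTs of the 89, against 6.34%, 8.79%, 3.51% and 4.32% of all features. The median absolute difference was 0.17 at 15 dpf, 0.24 at 19 dpf and 0.14 at 28 dpf, each below its median SE of 0.33. Sex is compared between arrays, and its SE is larger than that of genotype for that reason.

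The smallest p of the 89 ESTs at 19 dpf was that of glutathione peroxidase 2 on CA037513. Its levels were 11.42, 11.82, 11.84, 11.93, 12.02 and 12.67 in 6 females and 9.22, 9.83, 9.96, 10.38, 10.49, 10.65, 10.75 and 10.80 in 8 males. All females lay above all males. The sexes did not overlap, in either direction, in 2 of the 89 ESTs and in 0.609% of all features. The 2 females of array 40 were flagged as poor and left out of the fit for this EST. Females had 3.22-fold the level of males (1.69 ± 0.47, SE), but the adjusted p was 0.432, and the value ran from 1.005 to 1.975 over the alternatives. The spot was above the negative controls in 5 of the 6 females and in 2 of the 8 males.

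At the other ages the sexes of CA037513 overlapped. At 15 dpf females and males differed by 0.43 ± 0.43 (SE, adjusted p = 0.944), with 10.92 to 13.60 in 8 females and 10.80 to 11.95 in 8 males, and at 28 dpf by -0.81 ± 0.47 (SE, adjusted p = 1), with 8.65 to 11.66 in 8 females and 11.23 to 12.15 in 6 males. The change of the sex difference from 15 to 28 dpf, -1.24 ± 0.64 (SE), did not pass (adjusted p = 0.845), and that from 15 to 19 dpf was not tested. At 19 dpf CA055453 had a sex difference of 0.20 ± 0.36 (SE, adjusted p = 0.909) and CB497633 one of 0.19 ± 0.44 (SE, adjusted p = 0.932). Within genotypes at 19 dpf CA037513 differed by 1.35 ± 0.54 in OSU/CW and 2.02 ± 0.54 in OSU/OSU (SE), and the difference between these was -0.67 ± 0.52 (SE, adjusted p = 0.882).

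**Figure D3:**
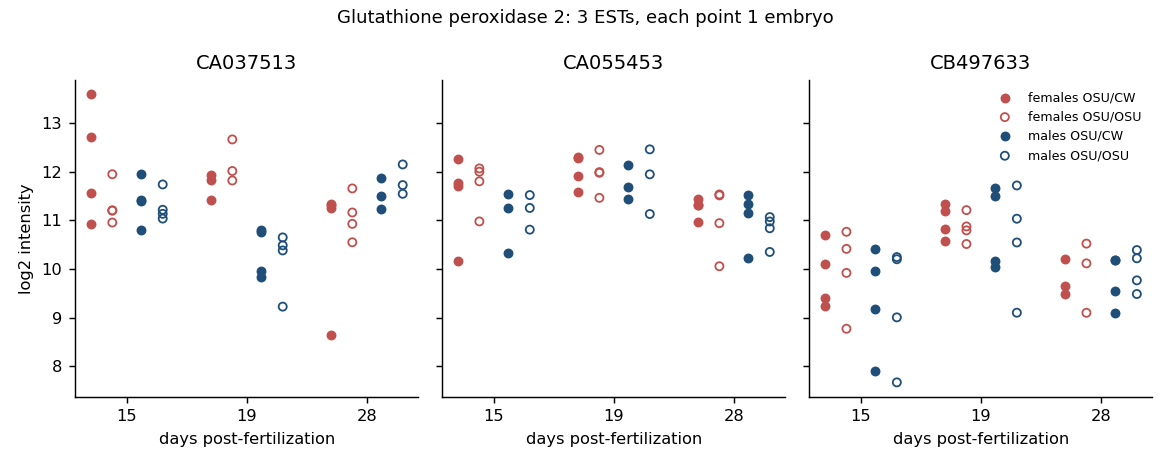
Each panel shows 1 of the 3 glutathione peroxidase 2 ESTs, with days post-fertilization on the x axis and log2 intensity on the y axis, and each point is 1 embryo. Females are red and to the left of males in blue, and OSU/CW is filled and to the left of OSU/OSU, which is open. At 19 dpf the females of CA037513 lie at 11.42 to 12.67 and the males at 9.22 to 10.80, and the sexes overlap on both other ESTs.

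The features most like CA037513 over the embryos were, by Pearson's r, antigen peptide transporter 1 (CA052500, 0.74 over 42 embryos), pre-mRNA-splicing factor 18 (CA053092, 0.74 over 36), WD repeat protein 13 (CA052167, 0.73 over 42), selenoprotein T2 (CA041815, 0.72 over 40) and Rab-5C (CB512645, 0.71 over 40). These values are descriptions, and both embryos of 1 array share that array.

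The other EST without overlap between the sexes at 19 dpf was peroxiredoxin-6 on CA062947. Females had 8.58 to 10.03 (median 9.83, n = 8) and males 10.09 to 11.54 (median 10.44, n = 6), with a difference of -1.02 ± 0.39 (SE, adjusted p = 0.476). It was above the controls in 2 of the 8 females and 4 of the 6 males. At 15 dpf the smallest p belonged to glutathione S-transferase theta-1 on CA044880, with 9.41 to 10.36 (median 9.74) in 8 females and 9.83 to 11.43 (median 10.79) in 8 males and a difference of -0.97 ± 0.33 (SE, adjusted p = 0.667). Thioredoxin-like protein 5 on CB510810 had the smallest p at 28 dpf, with 10.50 to 11.66 (median 11.40) in 8 females and 8.14 to 11.80 (median 10.27) in 8 males, and over all embryos, where females were higher by 0.71 ± 0.26 (SE, adjusted p = 1).

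The study's methods used a wider rule, in which a feature first passes an overall test of the 12 groups at an FDR of 0.05. An FDR of 0.2 is then applied over all 66 pairs of groups together, for the features that passed. It is therefore not the false rate within a single sex comparison. A call is lost where either step is missed. The overall test passed 11 of the 89 ESTs (12.4%), where it passed 13.8% of all features. By this rule 6 ESTs of the 89 differed between the sexes in at least 1 of the 6 comparisons, where 9.7% of all features did. Within OSU/CW there were 1, 3 and 1 ESTs at 15, 19 and 28 dpf, against 2.87%, 5.38% and 1.2% of all features. Within OSU/OSU there were 0, 3 and 0, against 2.07%, 2.91% and 1.29%. With an FDR of 0.05 in each comparison instead, 0 ESTs were called. CA037513 missed the overall test (adjusted p = 0.0525) and so was not called by it. Its sex difference in OSU/OSU at 19 dpf was called by the rule in 7 of 33 alternatives, namely without array 26, 31, 35, 38 or 39, with no dye term and with the background median, at values of 1.98 to 2.05 and adjusted p by the rule of 0.000231 to 0.00403.

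Of these calls, both in the glutathione peroxidase 3 family at 19 dpf were higher in females with OSU/CW. CA052877 had 11.56, 12.12, 12.76 and 12.79 in females and 10.09, 11.31, 11.57 and 12.12 in males (1.03 ± 0.34, SE, adjusted p by the rule 0.0169). CB492399 had 9.97, 10.48, 11.37 and 12.22 in females and 9.22, 9.36, 9.61 and 10.49 in males (1.34 ± 0.37, SE, adjusted p by the rule 0.00543). In both ESTs the females and males overlapped. Over both sexes and genotypes at 19 dpf, CA052877 was above the negative controls in 15 of 16 channels and CB492399 in 4 of 16. At 15 dpf CB492399 was above them in 6 of 16. CB492399 was also called at 15 dpf in OSU/CW, with 10.76 to 11.95 in females and 10.42 to 11.15 in males (0.77 ± 0.38, SE, adjusted p by the rule 0.109). Both of its calls were lost without any of 8 arrays (13, 14, 19, 22, 26, 35, 38 or 39). The call at 19 dpf was lost there because the EST missed the overall test. Wherever it passed that test, the adjusted p by the rule at 19 dpf was at most 0.0425.

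Selenoprotein M on CB517531 was called lower in females at 19 dpf in both genotypes. Within OSU/CW the females had 8.86, 9.56, 9.84 and 10.02 and the males 9.96, 10.20, 10.47 and 11.09 (-0.86 ± 0.41, SE, adjusted p by the rule 0.0982). Within OSU/OSU the females had 9.09, 9.22, 9.76 and 10.07 and the males 9.04, 10.05, 11.12 and 11.16 (-0.81 ± 0.41, SE, adjusted p by the rule 0.122). The groups overlapped in both genotypes, and the call was lost in OSU/CW without array 15 or 27 and in OSU/OSU without array 10, 11, 15 or 27. CB517531 was above the negative controls in 6 of all 16 channels at 19 dpf.

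The remaining calls were 1 at 28 dpf and 2 at 19 dpf. At 28 dpf Cu-Zn superoxide dismutase on CB494095 had 11.88, 11.94, 11.96 and 12.54 in OSU/CW females and 11.11, 11.51, 11.53 and 11.83 in OSU/CW males (0.59 ± 0.32, SE, adjusted p by the rule 0.154). At 19 dpf in OSU/OSU, the peroxide reductase CB496629 had 9.53 to 10.68 in females and 10.54 to 12.08 in males (-0.86 ± 0.37, SE, adjusted p by the rule 0.0608). This EST was above the negative controls in 8 of all 16 channels at 19 dpf. Glutathione S-transferase P 1 on CA054940 had 11.42, 11.80 and 11.83 in 3 females and 11.85, 12.12, 12.20 and 12.44 in 4 males (-0.49 ± 0.27, SE, adjusted p by the rule 0.158). Females and males did not overlap in CB494095 and CA054940 and overlapped in CB496629. The share of all features without overlap was not computed within a genotype. These ESTs were picked by their calls on the same few embryos, so the separation adds no support. Leaving out 1 array ended the call of CB494095 for 4 arrays (23, 26, 28 or 37), that of CA054940 for 10 (11, 18, 22, 26, 28, 29, 33, 36, 37 or 38) and that of CB496629 for 16 of the 24 (10, 11, 15, 17, 18, 22, 23, 26, 27, 28, 29, 36, 37, 38, 39 or 41).

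The comparison of the QTL genotypes was made within arrays. At an FDR of 0.05, 0 of the 89 ESTs differed between OSU/CW and OSU/OSU embryos at 15, 19 or 28 dpf or over all embryos, where 0% of all features did in each. At an unadjusted p under 0.05 there were 4, 6, 6 and 5 ESTs of the 89, against 5.46%, 5.95%, 4.76% and 4.86% of all features, and log ratios within arrays alone also gave 0 calls. The median absolute difference over all embryos was 0.08, with a median SE of 0.11, and the median difference was 0.04.

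The smallest p over all embryos, at 19 dpf and at 28 dpf was that of the peroxide reductase EST CA062770. OSU/CW was higher than its OSU/OSU partner on 4 of 8 arrays at 15 dpf, 6 of 8 at 19 dpf and 7 of 7 at 28 dpf. The paired differences at 28 dpf ran from 0.09 to 1.41 with a median of 0.32. Levels at 28 dpf were 10.67 to 11.53 (median 11.08) in OSU/CW and 9.67 to 11.14 (median 10.74) in OSU/OSU, and the groups overlapped. The difference was 0.45 ± 0.16 at 28 dpf (SE, adjusted p = 0.92) and 0.33 ± 0.09 over all embryos (SE, adjusted p = 0.975).

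At 15 dpf the smallest p was that of CB505875, a peroxiredoxin. OSU/CW embryos had 10.05 to 11.12 (median 10.48) and OSU/OSU embryos 10.57 to 11.80 (median 10.96), in 8 embryos each. OSU/CW was higher on 1 of 8 arrays, and the difference was -0.57 ± 0.16 (SE, adjusted p = 0.596). At 19 and 28 dpf it was higher on 3 of 8 and 4 of 6 arrays, and the ranges of paired differences spanned 0.

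**Figure D4:**
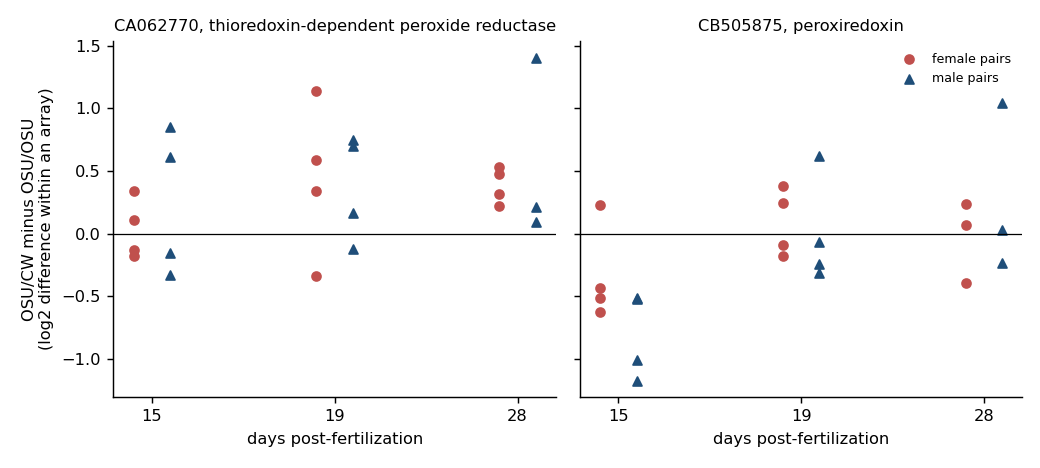
Each point is the log2 difference between the OSU/CW and the OSU/OSU embryo of 1 array, plotted on the y axis against days post-fertilization, with female pairs as red circles and male pairs as blue triangles. For CA062770 all 7 pairs at 28 dpf lie above 0, from 0.09 to 1.41, and for CB505875 7 of 8 pairs at 15 dpf lie below 0.

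The 5 tests of whether differences depend on another factor called 0 of the 89 ESTs. They were sex by genotype at 15, 19 and 28 dpf, where 0% of all features passed, and the change of the genotype and of the sex difference between 15 and 28 dpf, where 0% and 0.00858% did. At an unadjusted p under 0.05 there were 3, 7 and 5 ESTs for sex by genotype (background 5.28%, 6.24% and 4.19%), 5 for the change of the genotype difference (5.64%) and 2 for that of the sex difference (5.82%). The largest of the last was glutathione S-transferase theta-1 on CA044880 (1.66 ± 0.47, SE, adjusted p = 0.549).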

How the data were processed

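Scanner files of 24 arrays were used. The authors deposited the mean signal and local background of each spot and channel as linear intensity values, without background subtraction or normalization, with a flag for poor spots. They also deposited a table of scores. Each score was found to be a quotient of centred log intensities (signal minus mean background), within a relative tolerance of 0.0001 on every array. It is no log ratio, its log base is unknown, and it was not used for tests. The scanner settings were not stated in the sources.

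From the intensities, background was corrected by normexp with an offset of 50 in limma 3.58.1 under R 4.3.3. Loess was run within arrays, with control spots at weight 0, and Aquantile between arrays. Poor spots were set to missing and spots of the same EST averaged. Detection meant a signal above the 90th percentile of 1003 negative control spots (907 blank or empty, 96 of Arabidopsis). Features entered the tests when 16 or more of the 48 channels were detected and every sex and age had values from 2 or more arrays. Log2 values of both channels were fitted with 12 treatments and dye as fixed terms and a common correlation within arrays (0.533), with moderated variances and Benjamini-Hochberg adjustment over 11659 features. A bound uses the mean over arrays of the lowest detected signal. The number of arrays limits the precision, with 4 embryos per group. The embryos were separate animals of 1 family, each hybridized to 1 array. The p-values therefore measure the spread between embryos of that family together with that between hybridizations, and do not reach other families.

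Named were, in each role, the 2 ESTs with the smallest p for 28 minus 15 dpf and those called only in another interval. In the sex and genotype comparisons, they were the EST with the smallest p and all calls of the methods' rule. All tested superoxide dismutase and catalase ESTs, CA037513 and every description with at least 3 tested ESTs were added. Not every EST of such a description is given by name. Others were named after their values were seen. The members, role lists and marker lists were chosen with earlier results of these data known. None of the 108 ESTs was found in the RefSeq gene table, so no positions or sequences are given. The code was tested on simulated data. Alternatives changed background, normalization, filter, poor spots, dye term, model, FDR and arrays. The local background median and the removal of the 3 arrays with a channel under 1.25 in median signal over background were added after the data were seen.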

Additional observations from a re-analysis of the deposited data

Results flagged for a closer look

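Among 28 groups of embryos behind the ESTs named for sex or genotype, 2 held an embryo past an outlier threshold. Chance gives about 1 group in 20, so this count is near chance. In Cu-Zn superoxide dismutase (CB494095) at 28 dpf, 1 OSU/CW female, on array 26, had a level of 12.54 while the next was at 11.96 and the lowest of the 4 at 11.88. The call of this EST between the sexes was lost without that array. In the peroxiredoxin CB505875 at 15 dpf, 1 OSU/OSU embryo, on array 31, had a level of 11.80 while the next was at 11.15 and the lowest of the 8 at 10.57.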

How the results depend on the processing

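The counts of ESTs that differed between females and males, between OSU/CW and OSU/OSU and in the interaction tests were 0 in every alternative run. The split of calls between ages moved most with loess within arrays only, with 1 higher and 29 lower at 28 minus 15 dpf, 0 and 31 at 28 minus 19 dpf and 0 higher at 19 minus 15 dpf. That scaling also turned CB492774 to -0.35, CA061416 to -0.20 and CA054957 to -0.094 at 28 minus 15 dpf, and keeping poor spots turned CA037513 to 0.079. Without background subtraction there were 13 higher and 5 lower at 28 minus 15 dpf, 1 and 3 at 28 minus 19 dpf, 0 higher at 19 minus 15 dpf and 2 ESTs by the methods' rule. Plain subtraction with centring gave 4 higher and 5 lower at 28 minus 19 dpf and 3 by the methods' rule. The cause was not tested. Requiring detection in all channels left 7 ESTs to test, with 0 higher and 1 lower at both 28 minus 15 and 28 minus 19 dpf, 0 higher at 19 minus 15 dpf and 0 by the methods' rule. An FDR of 0.2 gave 20 lower at 28 minus 15 dpf, 15 higher and 14 lower at 28 minus 19 dpf and 9 higher and 3 lower at 19 minus 15 dpf, and an FDR of 0.05 in each comparison gave 0 by the methods' rule.

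At 19 minus 15 dpf, where 1 EST was called higher and 0 lower, the count higher was 0 with a mixed model, 3 with no dye term, 2 with quantile normalization, 2 with poor spots kept and 2 with the background median, and the last 2 settings gave 1 lower. Without the 3 arrays of lowest signal over background it was 0, with 3 higher at 28 minus 19 dpf. The background median and the removal of these 3 arrays were chosen after seeing the data.

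Leaving out 1 array gave 18 to 26 higher and 8 to 12 lower at 28 minus 15 dpf, 2 to 8 higher and 5 to 9 lower at 28 minus 19 dpf, 0 to 3 higher and 0 to 1 lower at 19 minus 15 dpf, and 4 to 8 by the methods' rule. The count higher at 28 minus 19 dpf was 2 without array 15 or 19, 3 without 27 or 37 and 4 without 26 or 29, and the count lower was 5 without array 10. At 19 minus 15 dpf the count higher was 0 without array 11 or 41, 2 without 22, 27 or 37 and 3 without 15, 18, 31 or 35, and the count lower was 1 without 15, 31 or 37. No paired analysis was possible for age or sex because each array holds embryos of 1 age and sex, while genotype was compared within arrays. Low signal over background at 15 dpf limits the dim ESTs.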
